A study of Danio rerio with 12 samples.

Results

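DEAD-box and DEAH-box RNA helicases are here taken as the proteins encoded by the ddx and dhx genes. The gene mutated in these zebrafish, ddx3xb, is among these genes. The genes were chosen by symbol: every Ensembl zebrafish gene ID whose symbol starts with ddx or dhx and a digit, ddx4 left out, that reached an RPKM of 1 in any of the 6 deposited tables. RPKM is the number of reads on a gene scaled by its length and by the reads of the library. This gave 41 genes among 17053 kept genes of the series. The name table lists 51 such IDs, of which 43 have a row in the tables. The other 8 (DDX24, ddx41, DDX46, DDX47, DDX52, DDX54, DHX36 and DHX38) have no row under their listed IDs and were not analysed here. Whether these genes stand in the tables under other IDs could not be resolved, so the set may be incomplete. Of the 43, 2 stayed under the minimum: DHX58, with a highest RPKM of 0.425, and one of the 2 IDs named DHX32, with a highest RPKM of 0.287. The kept gene with the lowest peak was DHX40, at 5.63, so the minimum of 1 fell in a gap.

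The assay was RNA sequencing of poly(A)-selected RNA, taken from intact zebrafish embryos aged 2, 4 or 6 hours after fertilization (hpf). Mutant embryos carried the genotype labelled Ddx3xb-/Ddx3xb-, and control embryos were labelled wild type (ddx3xb+/+). Each of the 6 combinations of genotype and age had 2 samples among 12, but the authors deposited 1 RPKM value per gene for each combination. Every value below is therefore the authors' group value, with no replicate error, no p-value and no read count behind it, and whether a difference exceeds the spread between replicates cannot be stated. The labels do not say where the mutation lies, whether the mothers were mutant too, or how many embryos made a sample. Differences are given as mutant minus control on the log2(RPKM + 1) scale, which understates the differences of low genes, and a gene is counted as higher or lower when that difference is at least 1 in size.

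RNA helicases of this kind bind RNA and ATP and open short duplexes or displace proteins from RNA. DEAD-box members mostly act locally, for instance on the 5′ ends of messenger RNAs or on assembling ribosomes, while DEAH-box members travel along the strand and drive steps such as the release of spliced RNA. The mother loads the fish egg with RNA, and the embryo depends on this stock, helicase RNAs included, until its own genome is switched on. DDX3 proteins unwind structured messenger RNA leaders and help translation to begin.

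The targeted gene ddx3xb (ENSDARG00000005774) stood at an RPKM of 0.697, 18.8 and 48.8 in mutants at 2, 4 and 6 hpf, against 325, 318 and 194 in controls. It ranked 41st of the 41 helicase genes in mutants at 2 hpf and second in controls. Its differences were -7.59, -4.01 and -1.97. They were the lowest of all members at 2 and 4 hpf, while at 6 hpf DHX32 was close (-1.91), and lower than ddx3xb with quantile normalization (-2.25, against -1.66) and with smaller pseudocounts. Its paralog ddx3xa (ENSDARG00000020573) stood at 97.4, 108 and 118 in mutants, against 107, 117 and 32.1 in controls. The genotypes thus differed by -0.14 and -0.11 at 2 and 4 hpf and by 1.84 at 6 hpf, where the mutant level was 3.67 times the control level. From 4 to 6 hpf ddx3xa differed by 0.13 in mutants and by -1.83 in controls as deposited, by 0.63 in mutants and -0.99 in controls with trimmed-mean rescaling of the tables, and by 0.13 in mutants and -1.53 in controls with quantile normalization. The genotype difference at 6 hpf was 1.43 with rescaling.

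Summed over the pair, DDX3 RNA stood at an RPKM of 98.1, 127 and 167 in mutants at 2, 4 and 6 hpf, against 432, 435 and 226 in controls. As deposited, mutants thus held 22.7%, 29.2% and 73.7% of the control sum. At 6 hpf ddx3xa was 85.8 RPKM higher in mutants while ddx3xb was 145 RPKM lower. The percentage and the RPKM gaps at 6 hpf move with the scaling of the tables. There ddx3xa differed by 1.43 and ddx3xb by -2.4 with trimmed-mean rescaling, and by 1.5 and -1.66 with quantile normalization. The share of the pair that came from ddx3xa was 99.3%, 85.2% and 70.7% in mutants, against 24.8%, 26.9% and 14.2% in controls. The pair made up 5.11%, 6.14% and 5.58% of the summed RPKM of all 41 genes in mutants, against 17.4%, 15.1% and 6.41% in controls. The paralogs are related in sequence, and how reads that match both were counted is not given in the sources used here, so reads of one may stand under the other. In whole embryos, fewer cells with an RNA and less of it per cell cannot be told apart, and after poly(A) selection neither can the amount of an RNA and its poly(A) tail.

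**Figure D1:**
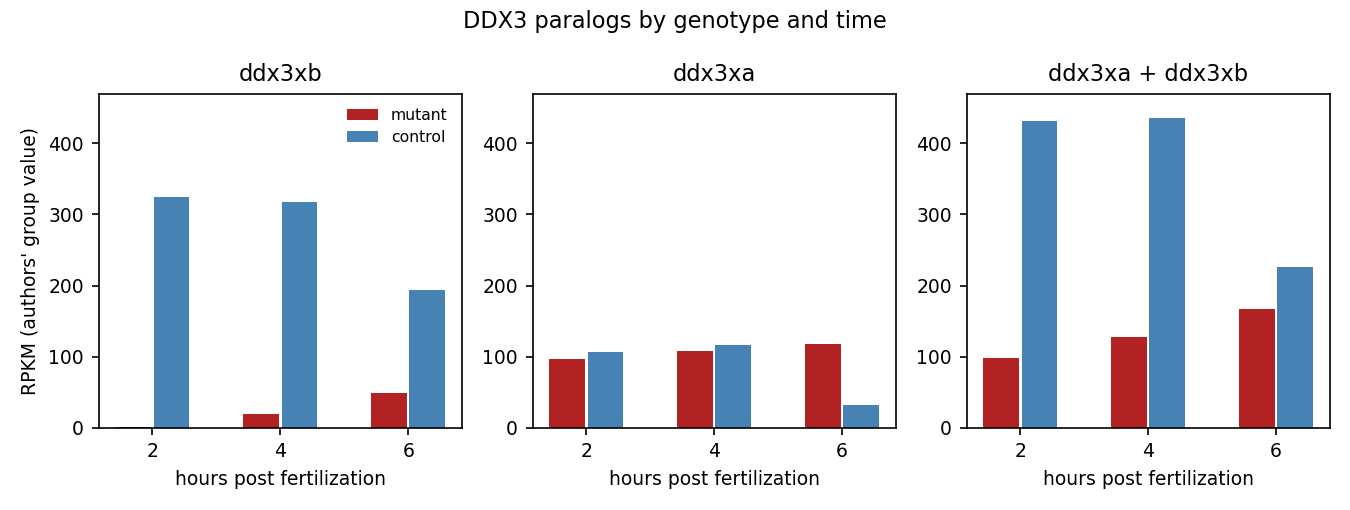
RPKM (y axis, linear, from 0) of ddx3xb, ddx3xa and their sum at 2, 4 and 6 hpf (x axis), with mutants in red on the left of each pair and controls in blue on the right. Each bar is the authors' single value for a group, so there are no error bars. The ddx3xb bars are lower in mutants at every age, the ddx3xa bars nearly match at 2 and 4 hpf, and at 6 hpf ddx3xa is at 118 in mutants and 32.1 in controls.

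The 41 genes covered a wide range of levels, and most were present at all ages. The median RPKM of the members was 17.8, 19.6 and 20.8 in mutants at 2, 4 and 6 hpf, against 17.4, 19.0 and 21.7 in controls. That is above the median of all kept genes, which was 6.16, 6.59 and 5.22 in mutants, against 5.92, 6.44 and 4.14 in controls. All 41 members had an RPKM of at least 1 in every table except ddx3xb in mutants at 2 hpf. The 2 IDs named DDX39A, DDX5 and the DDX19A ID held a large share of the summed level at each age, between 53.3% in mutants at 4 hpf and 62.5% in controls at 6 hpf.

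With ddx3xa and ddx3xb set aside, the summed RPKM of the other 39 genes was 1821, 1939 and 2819 in mutants at 2, 4 and 6 hpf, against 2053, 2447 and 3304 in controls. That gap is a net sum over genes that were higher and genes that were lower in mutants. Mutant minus control, it came to -232, -508 and -484 RPKM at 2, 4 and 6 hpf. The 2 DDX39A IDs together differed by -222, -245 and -423 RPKM, and DDX5 by -38, -249 and -17 RPKM. These sums weigh genes by their level and move with the scaling of the tables.

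**Figure D2:**
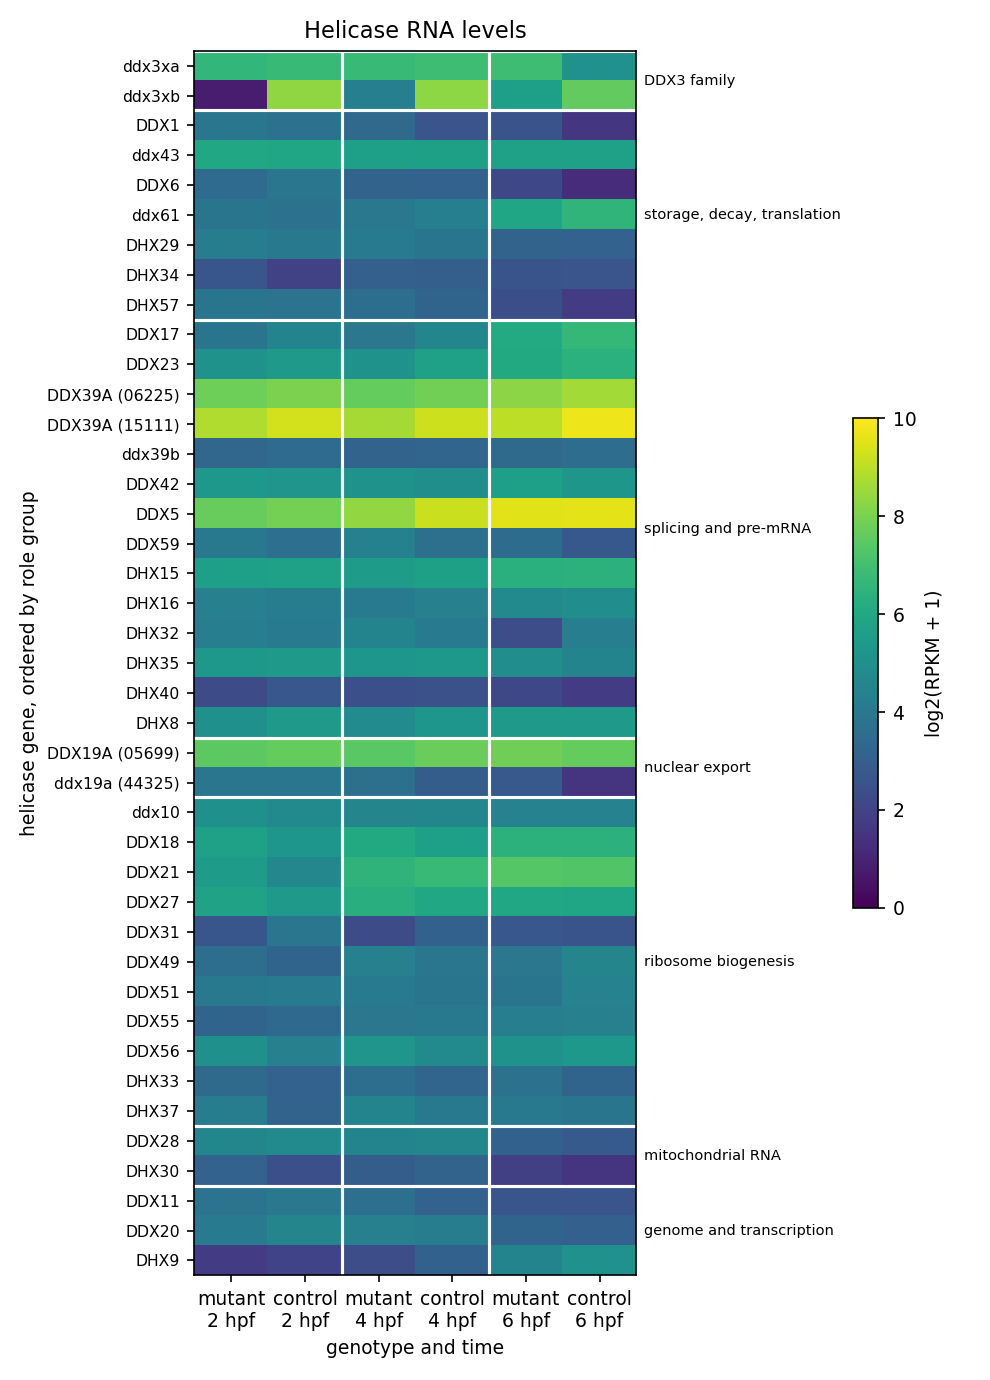
Level of each of the 41 helicase genes as log2(RPKM + 1) (colour), with genes in rows by role group and the 6 group values in columns, mutant left of control at each age. IDs that share a symbol carry the last 5 digits of their gene ID. The brightest rows are the 2 DDX39A IDs and DDX5, and the darkest cell is ddx3xb in mutants at 2 hpf, at an RPKM of 0.697.

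Apart from ddx3xb, few helicase genes differed between mutants and controls by 1 log2 or more. At 2 hpf 1 of 41 members was higher in mutants and 2 were lower, ddx3xb being one of these. Among all kept genes 4.14% were higher and 3.34% lower, or 7.48% in either direction. At 4 hpf 0 members were higher and 1, ddx3xb, was lower, against 3.79% higher and 6.31% lower among all kept genes (10.1% in either direction). The counts at 6 hpf were 3 higher and 2 lower, against 18.3% and 8.91% (27.2% in either direction). The member shares in either direction were 7.32%, 2.44% and 12.2% at 2, 4 and 6 hpf. Among the 11773 genes that reached an RPKM of 5 in some table, 7.42%, 10.5% and 32.1% were past 1 log2. A gene can pass that filter through 1 high group alone, and these genes are not matched in level to the members. Whether level accounts for the different shares was not tested.

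The median difference of the members was -0.05, -0.05 and 0.03 at 2, 4 and 6 hpf, beside 0.01, 0.01 and 0.22 over all kept genes. Within 0.5 log2 of 0 lay 33, 29 and 27 of the 41 genes, beside 12681, 11417 and 7221 of the 17053 kept genes. At 6 hpf the signs depended on scaling. With trimmed-mean rescaling of the tables the median of all kept genes moved by -0.31, and with quantile normalization by -0.15. Relative to the median of all genes, the members' median was at -0.19 as deposited, at -0.30 with rescaling and at -0.18 with quantile normalization. As deposited 24 members were above 0 and 17 below, with rescaling 9 and 32, and with quantile normalization 16 and 25.

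**Figure D3:**
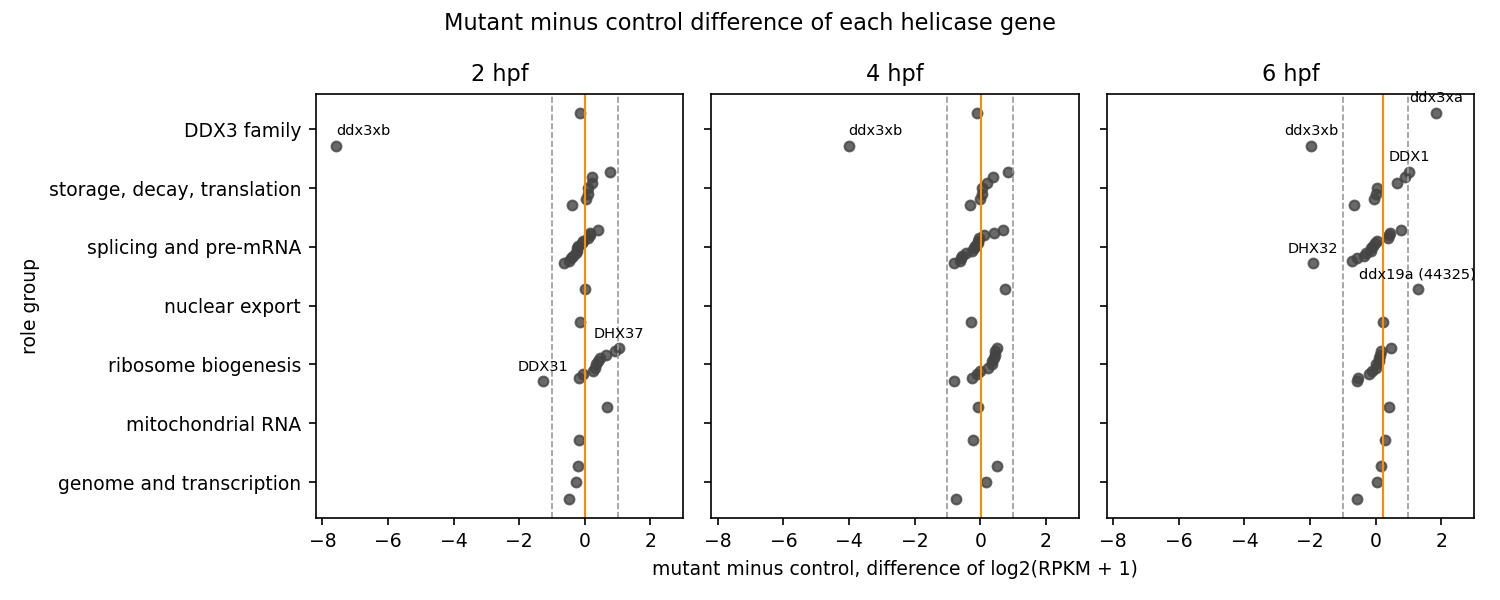
Difference of log2(RPKM + 1), mutant minus control (x axis), of each helicase gene at 2, 4 and 6 hpf, by role group (y axis). Each point is 1 gene, dashed lines mark a size of 1, and the orange line marks the median of all kept genes. Named points are those past 1 log2: ddx3xb at all 3 ages, DDX31 and DHX37 at 2 hpf, and ddx3xa, DDX1, ddx19a and DHX32 at 6 hpf.

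Helicases of RNA storage, decay and translation were divided in mutants at 6 hpf. As deposited 5 of 7 were above 0 and 1 was past 1 log2, while 3 of 7 were above 0 with trimmed-mean rescaling and likewise with quantile normalization. Among all kept genes 59.8% were above 0 and 18.3% were higher by 1 log2 as deposited. DDX1 (ENSDARG00000032117), which in human cells belongs to the transfer RNA ligase complex, stood at 14.4, 10.1 and 5.04 in mutants at 2, 4 and 6 hpf, against 12.2, 5.22 and 1.98 in controls. Its level was lower at each later age in both genotypes, and its difference of 1.02 at 6 hpf became 0.75 with rescaling and 0.92 with quantile normalization. DDX6, which represses translation and promotes decapping in cytoplasmic granules, stood at 10.4, 8.08 and 3.51 in mutants, against 14.0, 7.82 and 1.42 in controls, a difference of 0.90 at 6 hpf. DHX57 was also lower at each later age in both genotypes, at 13.7, 11.3 and 4.24 in mutants, against 13.1, 8.45 and 2.32 in controls, and differed by 0.05, 0.38 and 0.66.

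ddx61 (ENSDARG00000018425) was higher with age, at 13.6, 15.1 and 57.8 in mutants, against 12.7, 19.0 and 92.4 in controls, with a difference of -0.67 at 6 hpf, which became -1.09 with rescaling. As deposited, ddx43 (ENSDARG00000022614) stayed between 49.7 and 63.3 in all 6 groups, with differences of 0.09, -0.01 and 0.02. The last of these was -0.4 with rescaling and -0.06 with quantile normalization. With rescaling its level differed from 4 to 6 hpf by 0.58 in mutants and 0.88 in controls. DHX29 (ENSDARG00000040326), which in mammals helps ribosomes to scan structured leaders, stood at 18.1, 16.2 and 8.14 in mutants, against 15.5, 13.9 and 7.83 in controls. As deposited, it was lower at each later age in both genotypes, which differed by 0.21 or less. With rescaling its control level differed by 0.03 from 4 to 6 hpf. Its genotype difference at 6 hpf was then -0.34, and -0.24 with quantile normalization. DHX34, a factor of nonsense-mediated decay, differed by 0.76 at 2 hpf, at 5.47 in mutants and 2.83 in controls, and by 0.04 and -0.05 later. The last of these was -0.43 with rescaling and -0.36 with quantile normalization.

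Helicases of splicing and of the handling of spliced RNA were mostly a little lower in mutants. Of the 14 genes listed in this group, DHX32 and DDX59 included, 10, 11 and 9 were below 0 at 2, 4 and 6 hpf. DHX32 and DDX59 were placed here by the list alone, and a splicing role of either was not examined. The group medians were -0.22, -0.17 and -0.11. Of the 17053 kept genes 7637, 8360 and 6836 were below 0. As deposited, only DHX32 passed 1 log2 at any age. The counts below 0 were the same at 2 and 4 hpf with rescaling or quantile normalization, and 12 and 9 at 6 hpf. DDX39A, which loads export adaptors onto messenger RNA, has 2 IDs. The more abundant one (ENSDARG00000015111) stood at 447, 398 and 512 in mutants, against 629, 605 and 851 in controls, with differences of -0.49, -0.60 and -0.73, the last of which became -1.16 with rescaling. The second (ENSDARG00000006225) stood at 222, 199 and 307 in mutants, against 262, 236 and 392 in controls, and was thus lower by a smaller amount. Reads shared by the 2 IDs could have been split between them, and both lie on the same side.

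DDX5 (ENSDARG00000038068) and its relative DDX17 act in splicing and as transcription cofactors. DDX5 stood at 202, 333 and 751 in mutants, against 240, 582 and 768 in controls. As deposited, the groups were thus apart at 4 hpf (-0.80) and close at 6 hpf (-0.03). At 6 hpf DDX5 differed by -0.46 with trimmed-mean rescaling and by 0.23 with quantile normalization. DDX17 stood at 13.9, 14.6 and 67.5 in mutants, against 22.1, 23.2 and 101 in controls. As deposited, that was a similar difference at each age (-0.63, -0.63 and -0.57). The last of these was -0.99 with rescaling and -0.53 with quantile normalization. DHX15, which takes spent spliceosomes apart, differed by -0.09, -0.16 and -0.09, and DHX16, which acts before the first splicing step, by 0.17, -0.18 and -0.13. DDX23, of the tri-snRNP particle, differed by -0.27, -0.57 and -0.30, and DHX8, which releases spliced RNA, by -0.35, -0.42 and 0.03. With rescaling DHX15, DHX16, DDX23 and DHX8 differed by -0.51, -0.55, -0.73 and -0.39 at 6 hpf. With quantile normalization these were -0.11, -0.28, -0.31 and -0.09.

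DHX32 (ENSDARG00000077461) was the only helicase other than ddx3xb that was lower by 1 log2 in mutants at 6 hpf with the values as deposited. It stood at 18.6, 21.6 and 4.16 in mutants at 2, 4 and 6 hpf, against 16.7, 16.0 and 18.4 in controls. As deposited, the control values lay close together and the mutant value at 6 hpf stood apart from the other 5, with a difference of -1.91. The control level differed from 4 to 6 hpf by 0.19 as deposited, by 1.01 with trimmed-mean rescaling and by 0.74 with quantile normalization. The genotype difference at 6 hpf was -2.35 with rescaling and -2.25 with quantile normalization. As deposited, the DHX32 difference moved by -2.32 from 4 to 6 hpf, the only downward shift past 1 log2 among the 41 genes. Of the 17053 kept genes 1396 shifted downward past 1 log2. With rescaling DDX49, DDX51 and DDX56 also shifted downward past 1 log2. They went from 0.34, 0.15 and 0.39 at 4 hpf to -0.98, -0.96 and -0.63 at 6 hpf. With quantile normalization DDX49 also did, from 0.36 to -0.75. By contrast DDX59 was on the upper side at each age (0.40, 0.71 and 0.77), at 10.6 in mutants and 5.80 in controls at 6 hpf.

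Nuclear export is served by DDX19 proteins, which strip export factors from messenger RNA at the cytoplasmic face of the nuclear pore. Both IDs carry the same symbol, spelled in capitals for one and in lower case for the other. DDX19A (ENSDARG00000005699) was abundant, at 180, 171 and 227 in mutants, against 198, 207 and 196 in controls, and differed by -0.14, -0.27 and 0.21. The last of these was -0.21 with rescaling and 0.25 with quantile normalization. The minor ID, ddx19a (ENSDARG00000044325), stood at 14.2, 12.0 and 6.00 in mutants, against 14.1, 6.72 and 1.88 in controls. It began level between genotypes and was lower at each later age in both, with differences of 0.00, 0.75 and 1.28.

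Helicases of ribosome biogenesis had medians of 0.35 in mutants at both 2 and 4 hpf, beside 0.01 over all kept genes. Of 11 genes 8 and 7 were above 0, where 51.6% and 50.6% of all kept genes were, and rescaling or quantile normalization left these counts as they were. At 6 hpf the median was 0.01, below that of all kept genes, and 10 of 11 lay under the median of all genes as deposited. DHX37 (ENSDARG00000062612), the counterpart of a yeast helicase that frees a guide RNA from the small subunit precursor, stood at 17.8, 22.1 and 15.5 in mutants, against 8.19, 15.3 and 13.8 in controls. Its difference was 1.04 at 2 hpf (0.96 with quantile normalization), then 0.50 and 0.16. The last of these was -0.25 with rescaling and -0.08 with quantile normalization.

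DDX21 (ENSDARG00000063626), a nucleolar helicase of ribosomal RNA synthesis and processing, stood at 45.7, 90.3 and 164 in mutants, against 23.6, 109 and 153 in controls. Mutants were thus higher at 2 hpf (0.93, just short of 1 log2) and slightly lower at 4 hpf (-0.26). The shift of -1.19 between these ages was the only downward shift past 1 log2 in that interval among the 41 members. Of the 17053 kept genes 773 shifted downward past 1 log2. In either direction the share was 4.88% of the members and 5.91% of all kept genes. DDX31 (ENSDARG00000035507), also nucleolar, was the lowest of the group by its difference at 2 and 4 hpf. It stood at 5.32, 3.99 and 5.51 in mutants, against 14.2, 7.67 and 5.09 in controls. As deposited, its differences of -1.27, -0.80 and 0.10 shrank with age while the control level came down. From 4 to 6 hpf the control level differed by -0.51 as deposited, by 0.24 with trimmed-mean rescaling and by 0.05 with quantile normalization. The genotype difference at 6 hpf was -0.27 with rescaling and -0.2 with quantile normalization.

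The large subunit helicases DDX18 (ENSDARG00000030789) and DDX27 (ENSDARG00000091831) had like differences. DDX18 stood at 51.3, 66.7 and 84.8 in mutants, against 37.4, 48.7 and 84.0 in controls. DDX27 stood at 52.6, 77.4 and 63.3 in mutants, against 41.1, 60.3 and 57.8 in controls. As deposited, both were 0.35 to 0.45 higher in mutants at 2 and 4 hpf and nearer to control at 6 hpf. With trimmed-mean rescaling DDX18 differed by -0.41 and DDX27 by -0.29 at 6 hpf, and with quantile normalization by -0.02 and 0.04. DDX49, DDX51 and DDX56 were on the lower side at 6 hpf, at -0.56, -0.54 and -0.21.

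Mitochondrial ribosome assembly draws on DDX28 (ENSDARG00000060411) and DHX30 (ENSDARG00000077839) in human cells. DDX28 stood at 23.0, 21.6 and 7.71 in mutants, against 26.3, 22.9 and 6.16 in controls. DHX30 stood at 7.74, 6.65 and 2.72 in mutants, against 4.47, 8.00 and 1.82 in controls. Both were lower at 6 than at 4 hpf in each genotype, and neither differed between genotypes by 1 log2 at any age. The 3 helicases listed under genome and transcription also stayed within 1 log2 between genotypes. DHX9 (ENSDARG00000079725), known as RNA helicase A, was at 2.39, 4.15 and 21.8 in mutants, against 3.06, 7.54 and 32.7 in controls. DDX20 (ENSDARG00000061204), of the complex that assembles spliceosomal snRNPs, differed by -0.47, 0.17 and 0.15, and DDX11 (ENSDARG00000011072), a DNA helicase of chromatid cohesion, by -0.21, 0.50 and 0.04. At 6 hpf DDX20 and DDX11 differed by -0.24 and -0.33 with rescaling, and by -0.13 and -0.26 with quantile normalization.

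From 2 to 4 hpf most helicase RNAs differed by less than 1 log2 in both genotypes. In mutants 1 of 41 members was higher at 4 than at 2 hpf by 1 log2 (ddx3xb) and 0 were lower, where 3.21% and 0.264% of all kept genes were (3.47% in either direction). In controls 4 were higher and 1 lower, where 8.79% and 2.84% of all kept genes were (11.6% in either direction). The 4 were DDX21, DDX5, DHX34 and DHX9, by 2.16, 1.27, 1.10 and 1.07 in controls. In mutants these 4 differed by 0.97, 0.72, 0.39 and 0.60. They were picked by their control values, so nothing is read from the lower mutant values. DDX1 was the gene lower in controls, by -1.08, beside -0.46 in mutants.

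From 4 to 6 hpf the helicases divided. In mutants 5 were higher and 6 lower, beside 12.3% and 18.9% of all kept genes (31.2% in either direction). In controls 3 were higher and 8 lower, beside 17.3% and 35.1% of all kept genes (52.5% in either direction). The 3 genes higher in controls, ddx61, DDX17 and DHX9 (2.22, 2.07 and 1.98), were past 1 log2 in mutants too (1.87, 2.13 and 2.15). Of the 8 lower in controls 5 were also lower in mutants by 1 log2: DDX6, DDX28, DHX30, DHX57 and DDX20. These 5 differed by -1.01, -1.38, -1.04, -1.23 and -1.16 in mutants, against -1.86, -1.74, -1.67, -1.51 and -1.14 in controls. The other 3 were ddx3xa, ddx19a and DDX1, which differed by 0.13, -0.89 and -0.89 in mutants, against -1.83, -1.42 and -1.06 in controls. These counts rest on the scaling: with trimmed-mean rescaling 12 members were higher and 1 lower in mutants, and 18 and 2 in controls, while the median of all genes moved by 0.37 in mutants and 0.61 in controls.

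Relative to the median of all genes, the members' median was at 0.40 in mutants and 0.48 in controls from 4 to 6 hpf as deposited. With rescaling it was at 0.51 in mutants and 0.70 in controls, and with quantile normalization at 0.31 in mutants and 0.46 in controls. As deposited, splicing helicases were on the upper side, with medians of 0.55 in mutants and 0.36 in controls. All kept genes had -0.33 in mutants and -0.52 in controls. Ribosome biogenesis helicases were above these too, with medians of -0.06 in mutants and 0.3 in controls. Above the median of all genes lay 11 of 14 splicing helicases in each genotype. For ribosome biogenesis these were 9 of 11 in mutants and 11 of 11 in controls. As deposited, the genotype difference itself moved by 1 log2 from 4 to 6 hpf for 3 members: ddx3xb and ddx3xa upward (2.04 and 1.96) and DHX32 downward. Among all kept genes 26.0% moved by as much. With rescaling the ribosome biogenesis helicases DDX49, DDX51 and DDX56 also moved downward by 1 log2, and with quantile normalization DDX49 did. No test of these shifts was possible with 1 value per group.

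**Figure D4:**
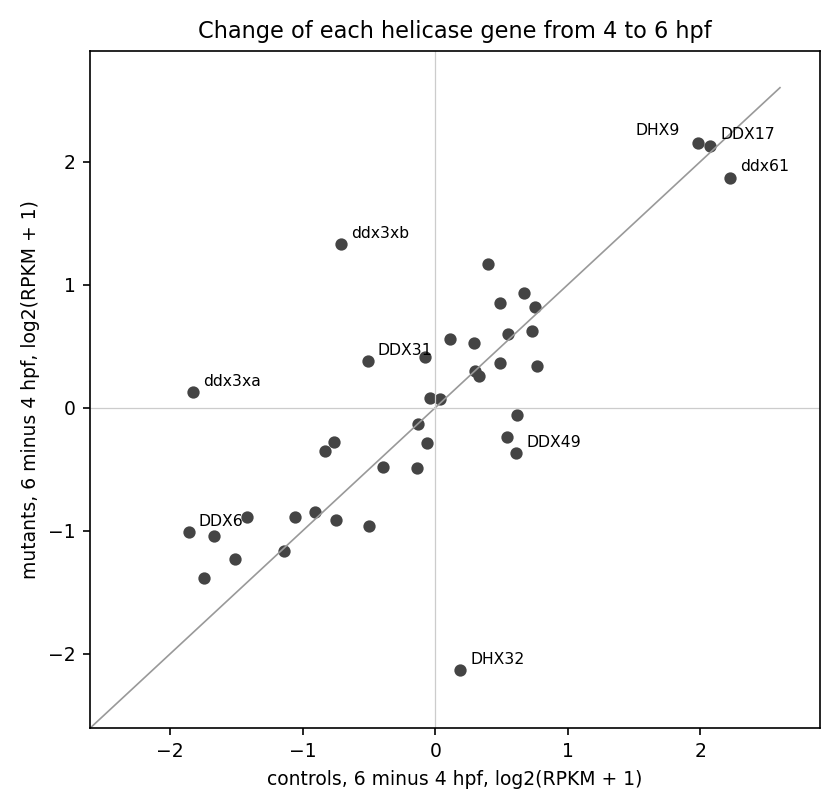
Difference of log2(RPKM + 1) between 6 and 4 hpf in mutants (y axis) and in controls (x axis), 1 point per helicase gene, with the line of equal change in grey. The mutant and control axes share no table. Most points lie near the line; ddx3xa (0.13 in mutants, -1.83 in controls) and ddx3xb (1.33 in mutants, -0.71 in controls) lie above it and DHX32 (-2.13 in mutants, 0.19 in controls) below.

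Related helicases that do not carry a ddx or dhx symbol gave 10 kept genes, of which UPF1 and AQR belong to another helicase superfamily. None was past 1 log2 at 2 or 4 hpf, where 7.48% and 10.1% of all kept genes were. In mutants at 6 hpf 3 of the 10 were higher and 0 lower (1 and 0 with rescaling), where 18.3% of all kept genes were higher and 8.91% lower. SKIC2, the helicase of the cytoplasmic exosome, was at 12.3 in mutants and 4.18 in controls. The translation initiation helicase eif4a1b was at 44.3 in mutants and 17.4 in controls, and DICER1, which cuts microRNA precursors, at 8.67 in mutants and 3.39 in controls. The close relative eif4a1a was on the other side, at 309 in mutants and 351 in controls. The nuclear exosome helicase MTREX was at 68.1 in mutants and 107 in controls at 2 hpf, a difference of -0.65.

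Protein cofactors that switch such helicases on or hold them in place gave 28 kept genes. At 2 hpf 0 were past 1 log2, where 7.48% of all kept genes were. At 4 hpf 1 was higher and 0 lower (0 and 0 with rescaling), where 3.79% and 6.31% of all kept genes were. This was gpatch11, at 16.5 in mutants and 7.23 in controls. At 6 hpf gpatch11 was on the other side, at 11 in mutants and 17.6 in controls. The counts at 6 hpf were 4 higher and 0 lower (2 and 2 with rescaling). The 4 are 14.3% of the list, below the 18.3% of all kept genes that were higher. LSM14B, a partner of DDX6, was at 147 in mutants and 11.8 in controls, and its relative lsm14aa at 43.6 in mutants and 20.5 in controls. PINX1, whose yeast counterpart activates that of DHX15, was at 99.1 in mutants and 36.7 in controls, and patl2 at 7.51 in mutants and 1.02 in controls. GLE1, which activates DDX19 at the nuclear pore, was just short, at 37.7 in mutants and 19.0 in controls (0.96). The median of the cofactors at 6 hpf was 0.21, next to 0.22 over all kept genes.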

How the data were processed

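Per the labels' protocols, TRIzol RNA was poly(A)-selected on Dynabeads before library construction with a KAPA kit for stranded mRNA. The submitters' processing notes name, with no roles, the build Zv9 and the tools HISAT2 2.0.5, SAMtools 1.9, Trimmomatic 0.36 and cutadapt 1.13. Not given in the sources used here are the counter, the annotation, the use of strand and the way 2 libraries became 1 value. The authors deposited RPKM values in 6 tables, 1 per genotype and age, each with 33737 gene IDs; 21939 matched a symbol. Each table name holds a genotype and an hour that match 1 group. Read depth per library was not derived here, so no counting interval is given.

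Values were compared as log2(RPKM + 1) over the 17053 genes that reached an RPKM of 1 in any table, using Python 3.11.15, pandas 2.3.3 and NumPy 2.4.6; matplotlib 3.10.9 drew the plots. With 1 value per group no test was run. The code was tested on simulated data. Alternatives were pseudocounts of 0.1 and 0.5, trimmed-mean rescaling (30% of log ratios and 5% of levels trimmed at each side), quantile normalization, other minimums and the summing of IDs that share a symbol. The genes named in full are the DDX3 pair, members past 1 log2 between genotypes at any age and the 3 most abundant of each role group; the other members that are named were picked after their values were seen. The members, role groups and lists were chosen with earlier results of these data known. A planned count of members whose mutant level at 6 hpf lies between the control levels at 4 and 6 hpf was left out because it uses the control table at 6 hpf on both sides.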

Additional observations from a re-analysis of the deposited data

How the results depend on the processing

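No paired analysis was possible because each table holds 1 value for its 2 samples, and for the same reason no replicate could be left out. For the genes named in full, 264 differences between genotypes were followed under the 2 other pseudocounts and 2 other scalings. Of these, 259 stayed on their side of 1 log2, 5 crossed it and 0 changed sign from past 1 log2. A difference well inside 1 log2 can move or change sign and still count as staying. At 6 hpf DDX5 went from -0.03 to 0.23 with quantile normalization, and DDX18 from 0.01 to -0.41 with rescaling. The other members are not among the 264. Pseudocounts of 0.1 and 0.5 each gave 4 members higher in mutants at 6 hpf, beside 3 in the main setting. Between genotypes, quantile normalization gave 0 members higher at 2 hpf and a median of -0.11 at 6 hpf. Trimmed-mean rescaling gave 4 lower and a median of -0.39 at 6 hpf. From 2 to 4 hpf, quantile normalization gave 2 members higher in mutants and 2 higher and 2 lower in controls, and pseudocounts of 0.1 and 0.5 each gave 2 lower in controls. From 4 to 6 hpf, rescaling gave 12 higher and 1 lower with a median of 0.55 in mutants, and 18 higher and 2 lower with a median of 0.79 in controls. Quantile normalization gave 2 lower in mutants, and 7 higher with a median of 0.25 in controls. In each case the cause was not tested. Without ddx3xb and ddx3xa, a choice made after seeing the data, 1, 0 and 1 members were lower in mutants at 2, 4 and 6 hpf, 0 were higher in mutants from 2 to 4 hpf, and the mutant median from 4 to 6 hpf was -0.06. The other minimums and the summing of shared symbols left each count within 1.5 times. Summed with DDX19A, ddx19a no longer counted at 6 hpf, which left 2 higher. The planned position of the mutant between 2 control ages was not run.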
